A study of Mus musculus with 12 samples.

Results

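RNA of macrophages and of microglia that had both been made deficient for Tgfbr2, the type II receptor of transforming growth factor beta (TGF-β), was compared in the mouse central nervous system. The members are the 3 libraries whose titles mark Tgfbr2 knockout (KO) macrophages and the 3 whose titles mark KO microglia, 6 of the 12 libraries in the series. The other 6, 3 of wild-type (WT) macrophages and 3 of WT microglia, were used to say which differences of cell origin were also there with the receptor. KO microglia came from C57BL/6 mice with both Tgfbr2 alleles floxed and with the tamoxifen-inducible recombinase CreER on 1 allele of Cx3cr1. WT microglia came from mice with the floxed alleles and no CreER. Tamoxifen was given in 3 daily injections of 5 mg, and after a wait of 18 to 22 days cells of the brain and spinal cord were sorted. KO and WT macrophages descended from bone marrow of the same 2 genotypes, transplanted into irradiated hosts that carried Cx3cr1-CreER and a Cre-activated diphtheria toxin allele. These hosts received the same tamoxifen 6 weeks after the transplant, which depleted their own microglia, and the cells that repopulated the tissue were sorted 18 to 22 days later. The cells of 1 to 5 mice were pooled for each library, and the labels describe the 3 pools of a group as separate biological samples.

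TGF-β binds a pair of receptors, TGFBR2 and TGFBR1, which phosphorylate SMAD2 and SMAD3, and these enter the nucleus with SMAD4 and change transcription. In the brain the pathway is known to maintain the mature state of microglia, including Tmem119, P2ry12 and Sall1. Microglia arise from yolk sac precursors, whereas macrophages that fill an emptied brain niche after a transplant arise from blood monocytes and keep some genes of that origin.

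All cells were live, Ly6C-negative and CD11b-positive. Both KO groups were sorted as F4/80-high and both WT groups as F4/80-low, so the comparison of KO macrophages with KO microglia lies within 1 gate, and any statement on how it differs from WT spans both. Both KO groups also carried CreER in place of 1 Cx3cr1 allele. Irradiation, transplant and host microglia depletion were given with the macrophages only, and their part in a difference cannot be told apart from that of origin. In bulk RNA of sorted pools, fewer cells of a type and less RNA per cell cannot be told apart.

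Levels are given as normalized counts, the authors' read count of a gene divided by the size factor of the library. Depth was 2615404 to 6364994 reads in genes. KO macrophage replicate 1 was the shallowest library and correlated at 0.935 to 0.936 with the other KO macrophage libraries, which correlated at 0.980 with each other. The same library had the highest summed level of the 26 genes listed as an early response to isolating cells, at 40160 against 17490 and 17395 in the other KO macrophages and 29511 to 37409 in KO microglia. Fos was at 3998, 1209 and 1275 in KO macrophages, with replicate 1 above all 3 KO microglia libraries (3075, 2205 and 2285). The libraries also differed in sex-linked transcripts. The Y-linked Ddx3y was at 0, 540.1 and 0 in KO macrophages and at 501, 470.0 and 508 in KO microglia, so replicate 2 alone among the KO macrophages matched the KO microglia. It was at 0.91, 8.9 and 653 in WT macrophages and at 0.881, 1.29 and 436 in WT microglia. The KO groups were thus uneven in Ddx3y and the WT groups were alike, which bears on any comparison of the KO with the WT difference. Counts of list members below are therefore also given without replicate 1 or with Ddx3y as a covariate where that moved either direction by over 1.5 times.

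Tgfbr2 (chromosome 9, 116084293 to 116175360, GRCm38) was at 2068, 2469 and 2167 in KO macrophages and at 2078, 2256 and 2246 in KO microglia. The groups overlapped and the log2 difference was 0.02 ± 0.10 (SE, adjusted p = 0.922). The means were 2235 in KO against 3303 in WT macrophages, and 2193 in KO against 2898 in WT microglia. Much of the RNA counted for this gene thus remained in both KO groups. The table gives 1 value per gene, which does not show how much of the floxed exons is gone in either group. The sorting markers overlapped as well: Adgre1, which encodes F4/80, differed by -0.03 ± 0.09 on the log2 scale (adjusted p = 0.904). Itgam, which encodes CD11b, differed by 0.06 ± 0.22 (adjusted p = 0.914). The macrophage genes Csf1r (9667 to 10162 in KO macrophages, 11035 to 11821 in KO microglia) and Spi1 (659 to 842 and 718 to 766) were present in all 6 libraries, and neither passed the test.

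Of 12519 tested genes, 1314 (10.5%) passed an adjusted p of 0.05 in KO macrophages against KO microglia, in limma's moderated test over 3 libraries a group. Of these, 682 (5.45%) were higher in KO macrophages and 632 (5.05%) were lower. At least 2-fold differences made up 361 of the higher and 338 of the lower genes, and at least 4-fold differences 172 and 159. The same test called 4930 genes (39.4%) between WT macrophages and WT microglia, 2398 (19.2%) higher and 2532 (20.2%) lower. The origin difference itself differed between KO and WT for 3235 genes (25.8%). Without KO macrophage replicate 1, 1552 genes were called, of which 1142 were among the 1314, all in the same direction. With Ddx3y as a covariate, 904 were called, 863 of them among the 1314 and all in the same direction. The lower genes then numbered 408, and 398 when KO microglia replicate 1 was left out. The libraries of the KO groups did not overlap for 1303 of the called genes (99.2%) and for 27.1% of all tested genes. The genes named below for the largest KO differences were chosen among those without overlap, so its absence is no separate support for them.

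Each gene called in KO cells was then read against WT. Kept genes, called in both with the same sign, numbered 759, which is 57.8% of the KO calls and 15.4% of the WT calls. Of these, 372 were higher in macrophages and 387 higher in microglia. Their median size was 1.35 on the log2 scale in KO cells and 1.96 in WT cells. The difference between KO and WT passed its own test for 288 kept genes, 262 with the smaller origin difference in KO cells and 26 with the larger. Opposite genes, called in both with opposite signs, numbered 201 (15.3% of the KO calls), 125 of them higher in KO macrophages. There were 132 opposite genes without KO microglia replicate 2 and 124 with Ddx3y as a covariate. KO-specific genes, called in KO, not in WT and with a called difference between the contrasts, numbered 219 (16.7%), or 139 with Ddx3y as a covariate, and 134 of the 219 were higher in KO macrophages. A further 135 genes were called in KO without a call in WT or for the difference. Lost genes, called in WT, not in KO and with a called difference between the contrasts, numbered 2309, or 46.8% of the WT calls. Across the tested genes, the origin difference in KO and that in WT correlated at a Pearson r of 0.42 and a Spearman rank coefficient of 0.17, a description over genes that are not independent and over 2 contrasts that share no library.

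**Figure D1:**
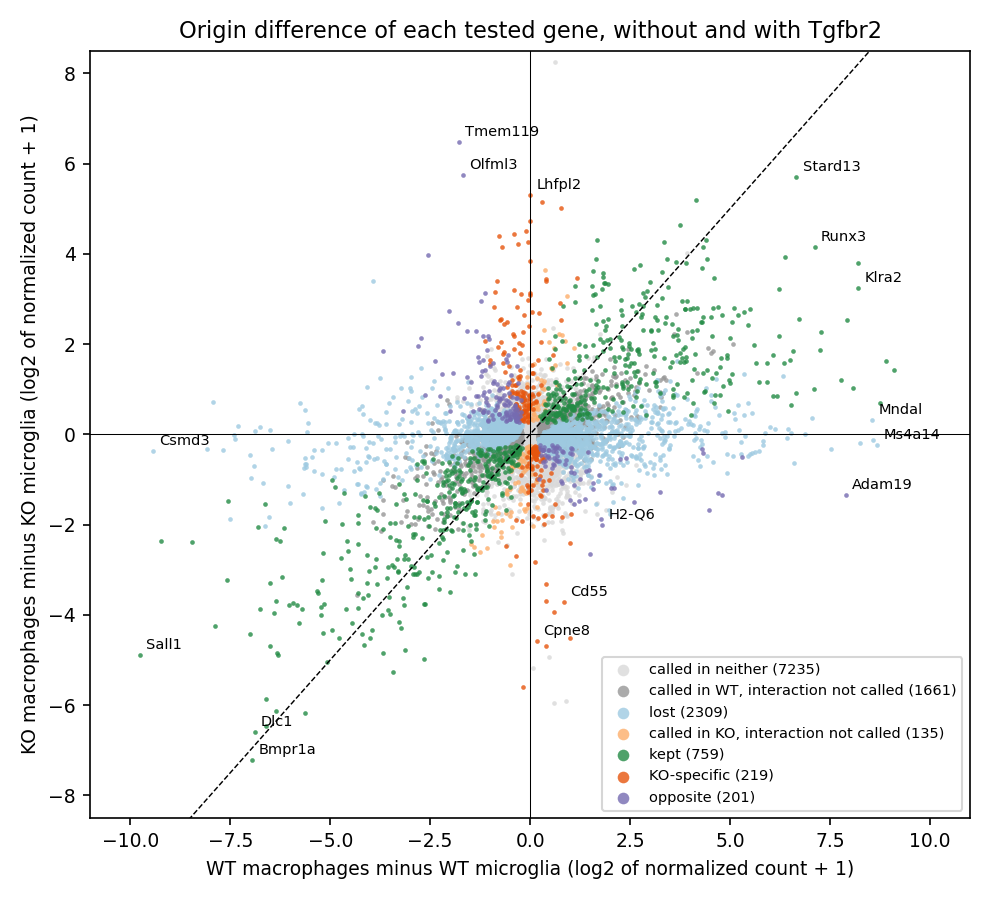
Origin difference of each of 12519 tested genes in WT cells (x axis) and KO cells (y axis), both as log2 of the normalized count + 1, macrophages minus microglia, coloured by the classes defined in the text. The 759 kept genes lie in the lower left and upper right, with a median size of 1.35 in KO and 1.96 in WT cells, and the dashed line marks equality. The 201 opposite genes lie in the upper left and lower right, and the 2309 lost genes lie along the horizontal axis.

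The largest kept differences on the microglial side were genes close to absent from macrophages of either genotype. Bmpr1a, a type I receptor for bone morphogenetic proteins (chromosome 14, 34410734 to 34503341), was at 260.2, 266 and 319 in KO microglia against 0, 1.75 and 1.44 in KO macrophages. All KO microglia stood far above all KO macrophages, with a log2 difference of -7.22 ± 0.34 (adjusted p = 3.19e-09), and the WT means were 247 in microglia and 1 in macrophages. Dlc1, a GTPase-activating protein (chromosome 8, 36567751 to 36953143), was at 689, 673 and 559 in KO microglia against 4.8, 9.6 and 3.59 in KO macrophages (log2 difference -6.61 ± 0.39, adjusted p = 3.05e-08). Its WT microglia mean was 163, below the KO microglia. The adjacent imprinted genes Sgce and Peg10 differed together. Sgce (chromosome 6, 4674350 to 4747207) was at 140.4, 159 and 178 in KO microglia against 0, 0.873 and 2.15 in KO macrophages (-6.46 ± 0.40, adjusted p = 5.77e-08). Peg10 (chromosome 6, 4747306 to 4760517) was at 192, 156 and 178 in KO microglia against 6.4, 5.24 and 3.59 in KO macrophages (-4.88 ± 0.26, adjusted p = 1.28e-08). For both genes no library of one group reached the other group, as the rule that named them required.

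Further genes of this kind were also low in KO macrophages. Nbea, a neurobeachin scaffold of membrane traffic, differed by -5.86 ± 0.29 on the log2 scale. Pard3b, a polarity protein, differed by -6.19 ± 0.43, and by -6.78 without KO macrophage replicate 2, the only one of the 3 with more than 3 normalized counts (3.49). Nr3c2, the mineralocorticoid receptor, differed by -5.28 ± 0.58, and by -4.25 without KO macrophage replicate 1, which was at 0. Nova1, an RNA-binding splicing regulator, was at 14.4, 0.873 and 4.31 in KO macrophages, and its difference of -4.85 ± 0.57 became -5.61 without replicate 1 and -4.09 without replicate 2. Magi1, a junctional scaffold, was at 24, 0.873 and 5.03 in KO macrophages, and its difference of -4.69 ± 0.64 became -5.66 without replicate 1 and -3.79 without replicate 2. Amotl1, an angiomotin family protein, differed by -4.51 ± 0.32.

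Sall1, the transcription factor that marks microglia (chromosome 8, 89027235 to 89044162), was at 354, 323 and 337 in KO microglia against 19.2, 8.73 and 6.46 in KO macrophages. The log2 difference was -4.90 ± 0.39 (adjusted p = 7.95e-07). In WT cells the means were 6360 in microglia and 7.31 in macrophages, so the KO difference was smaller by 4.87 on the log2 scale (adjusted p of the difference = 9.48e-06). Its paralogue Sall3 was lower still in KO cells, at 11.8, 8.85 and 8.84 in KO microglia and 0, 1.75 and 2.15 in KO macrophages (-2.39 ± 0.40, adjusted p = 0.000865).

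Kept differences on the macrophage side joined genes of several functions. Stard13, a GTPase-activating protein (chromosome 5, 151037510 to 151233836), was at 176, 194 and 203 in KO macrophages and at 1.96, 3.93 and 2.41 in KO microglia (log2 difference 5.70 ± 0.52, adjusted p = 3.6e-06). Acp5, tartrate-resistant acid phosphatase of osteoclasts and macrophages (chromosome 9, 22126727 to 22135711), was at 323, 324 and 282 in KO macrophages and at 4.91, 7.87 and 10.4 in KO microglia (5.20 ± 0.37, adjusted p = 2.57e-07). For both, the lowest KO macrophage library was far above the highest KO microglia library. Acp5 was at a mean of 22.6 in WT macrophages, below all 3 KO macrophage libraries. Runx3, a runt-family transcription factor (chromosome 4, 135120652 to 135177990), was at 112, 175 and 197 in KO macrophages against 13.7, 3.93 and 8.84 in KO microglia (4.14 ± 0.40, adjusted p = 5.68e-06). The WT difference for Runx3 was larger, at 7.12, and the 2 differences themselves differed (adjusted p = 0.00119).

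Dock5, an activator of Rac, was higher in KO macrophages by 4.64 ± 0.39 on the log2 scale (adjusted p = 1.46e-06), and its means were 38.4 in WT macrophages and 2.1 in WT microglia. Slc28a2, a nucleoside transporter, had the same shape, with 168, 193 and 150.1 in KO macrophages, 5.89, 12.8 and 6.43 in KO microglia and a WT macrophage mean of 17.2. The matrix genes Col14a1 (4.31 ± 0.27) and Emilin1 (4.16 ± 0.29) showed nearly the same log2 difference in WT cells, 4.41 and 4.33. Mmp14, a membrane-anchored matrix metalloproteinase, was at 46.4, 262 and 210.4 in KO macrophages and at 10.8, 5.9 and 3.22 in KO microglia. Its log2 difference was 4.30 ± 0.48 with KO macrophage replicate 1, the lowest of its group, and 5.07 without it. In WT cells Mmp14 differed by 1.68, less than in KO cells (adjusted p of the difference = 0.011).

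**Figure D2:**
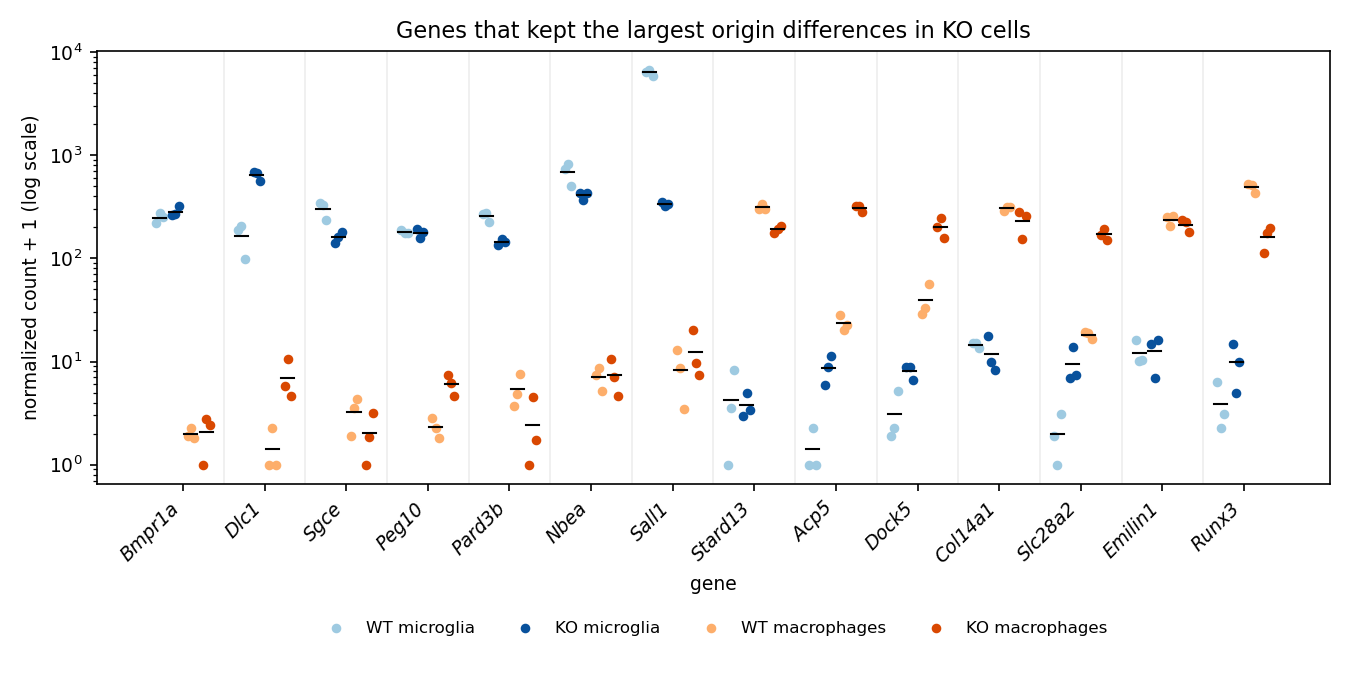
Normalized count + 1 on a log axis in each of the 12 libraries (points) and the group mean (black line) for 14 genes that kept a large origin difference in KO cells. The 7 genes on the left are close to absent from macrophages of both genotypes, and the 7 on the right are low in KO microglia.

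The largest difference on the macrophage side belonged to an opposite gene, Tmem119, a surface protein used to mark microglia (chromosome 5, 113793729 to 113800516). It was at 144, 412 and 363 in KO macrophages and at 1.96, 2.95 and 1.61 in KO microglia. The log2 difference was 6.48 ± 0.28 (adjusted p = 1.41e-09). In WT cells microglia were higher, with means of 5681 in microglia and 1655 in macrophages (log2 difference -1.78, adjusted p = 0.000128). Both cell types thus had less Tmem119 in the KO groups than in WT, down to 8.7, 24.9 and 21.9% of the WT macrophage mean in KO macrophages and to 0.0346, 0.0519 and 0.0283% of the WT microglia mean in KO microglia. Olfml3, a secreted matrix protein of microglia (chromosome 3, 103722222 to 103738001), had the same shape, with 332 ± 156 (SD, n = 3) in KO macrophages and 5.06 ± 2.73 in KO microglia (5.75 ± 0.34, adjusted p = 3.05e-08). Its levels were 8.52, 24.8 and 20.8% of WT in KO macrophages and 0.0406 to 0.132% of WT in KO microglia. KO macrophage replicate 1 was the lowest of its group for both genes, and without it the log2 differences were 6.95 and 6.22. The microglial genes Sall1 and Bmpr1a, given above, were at 6.46 to 19.2 and 0 to 1.75 in the same KO macrophage libraries.

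Other opposite genes on the macrophage side differed in how they stood to WT. Cx3cr1, the fractalkine receptor and the locus of CreER, was at 1359, 1518 and 1452 in KO macrophages and at 625, 419.8 and 398 in KO microglia (1.61 ± 0.15, adjusted p = 3.46e-06). In WT cells it differed by -1.27. KO macrophages held 17.2 to 19.2% and KO microglia 2.07 to 3.25% of their WT means. Abi3, an actin regulator, kept 42.4 to 51.7% in KO macrophages and 3.14 to 5.3% in KO microglia, and differed by 2.30 ± 0.15 (adjusted p = 9.85e-08). Arhgef40, a guanine nucleotide exchange factor, differed by 2.18 ± 0.26 (adjusted p = 3.15e-05), and Golm1, a Golgi membrane protein, by 1.33 ± 0.20 (adjusted p = 0.000318). Pecam1, an adhesion molecule of vessels and leukocytes, was at 103 ± 20 (SD, n = 3) in KO macrophages and 27.8 ± 1.54 in KO microglia (1.84 ± 0.30, adjusted p = 0.000707). Its WT means were 13.3 in macrophages and 179 in microglia, so that its mean was above WT in KO macrophages and below WT in KO microglia. P2ry12, a purinergic receptor of microglia, was at 415, 450.3 and 405 in KO macrophages and at 283, 278 and 332 in KO microglia (0.51 ± 0.12, adjusted p = 0.00882), a call that did not pass with Ddx3y as a covariate. Of the 125 opposite genes higher in KO macrophages, 118 had a lower mean in KO than in WT microglia, while 87 had a lower and 38 a higher mean in KO than in WT macrophages. The opposite signs that define the class favour a fall in microglia or a rise in macrophages. These counts describe the class and are no separate result.

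**Figure D3:**
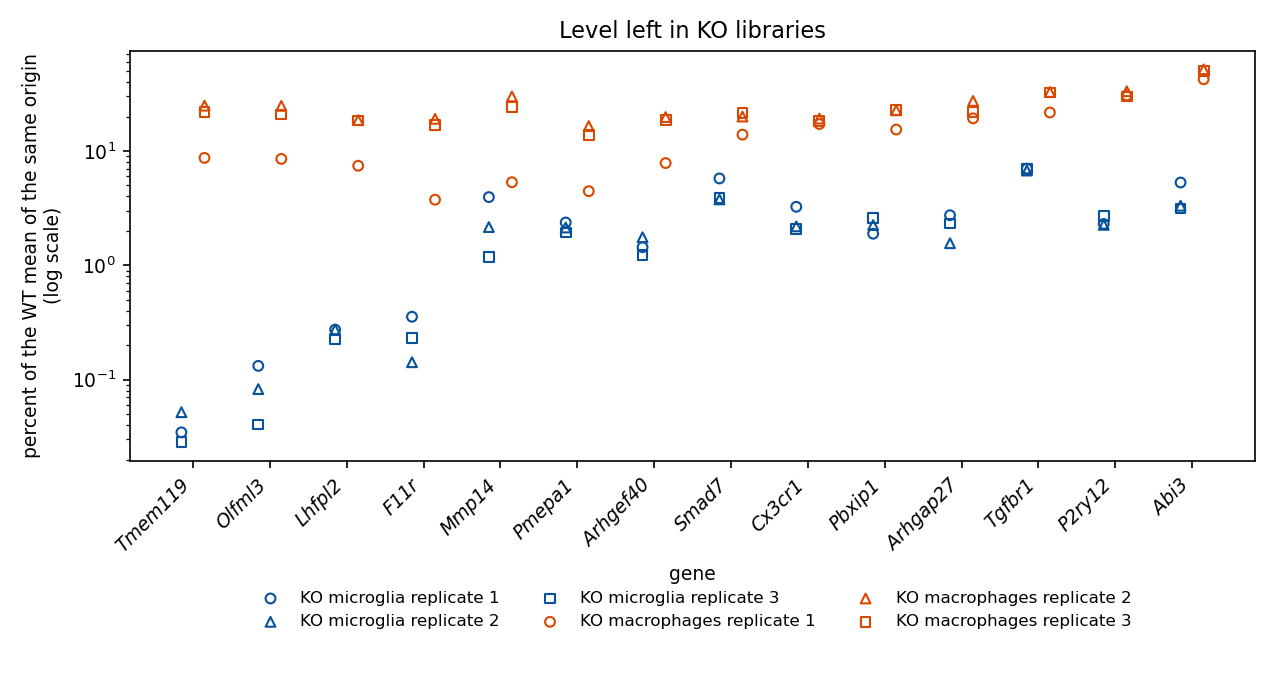
Level of 14 genes in each KO library as a percent of the WT mean of the same origin, on a log axis (circles replicate 1, triangles replicate 2, squares replicate 3). For Tmem119 the KO macrophages lie at 8.7 to 24.9% and the KO microglia at 0.0283 to 0.0519%, and KO macrophage replicate 1 is the lowest of its group for 13 of the 14 genes.

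Opposite genes on the microglial side were fewer, 76, and 75 of them had a higher mean in KO than in WT microglia. The definition of the class favours such a rise. H2-Q6 and H2-Q7, class I histocompatibility genes with near-identical copies whose reads may be split between them, differed by -2.01 ± 0.26 (adjusted p = 7.74e-05) and -1.88 ± 0.32 (adjusted p = 0.000935), against 1.81 and 1.76 in WT cells. Adam19, a membrane metalloproteinase, was at 1222, 1216 and 1301 in KO microglia against 600.2, 373 and 529 in KO macrophages (-1.34 ± 0.26, adjusted p = 0.00313). In WT cells it was near 0 in microglia, with a mean of 0.429, and at 317 in macrophages. Slc2a3, a glucose transporter, differed by -1.47 ± 0.22 (adjusted p = 0.000355). Meg3, an imprinted long non-coding RNA, differed by -1.46 ± 0.28 (adjusted p = 0.00229).

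KO-specific genes higher in KO macrophages included several with similar means in both WT groups and lower levels in both KO groups. Lhfpl2, a membrane protein (chromosome 13, 94057796 to 94195409), had WT means of 1077 in macrophages and 1075 in microglia. It was at 80, 199.8 and 199 in KO macrophages and at 2.95, 2.95 and 2.41 in KO microglia (5.30 ± 0.25, adjusted p = 3.19e-09). F11r, the junctional adhesion molecule A, was less alike in WT cells, at 785, 808 and 837 in macrophages and 1466, 1404 and 1277 in microglia. These WT libraries did not overlap, but the difference did not pass (log2 difference -0.77 ± 0.43, adjusted p = 0.175). This SE is shared over the KO and WT groups, so the spread among the KO macrophages enters it. F11r can therefore still differ between the WT groups. In KO cells F11r was at 30.4, 154 and 137 in macrophages and at 4.91, 1.97 and 3.22 in microglia. Its log2 difference in KO cells was 4.39 ± 0.43 with KO macrophage replicate 1, the lowest of its group, and 5.13 without it. Arhgap27 (3.11 ± 0.17, adjusted p = 1.28e-08) and Pbxip1 (3.09 ± 0.15, adjusted p = 3.98e-09) followed. Adgrl3, an adhesion receptor, was the exception in level, at 159 ± 63.8 (SD, n = 3) in KO macrophages and 15.7 to 23.6 in KO microglia with WT means of 3.28 and 1.41, so it was higher in both KO groups than in WT.

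The microglial side of the KO-specific class included genes near 0 in both WT groups. Cpne8, a calcium-dependent membrane-binding protein (chromosome 15, 90487482 to 90679432), was at 147, 163 and 180.1 in KO microglia against 14.4, 3.49 and 3.59 in KO macrophages, with WT means of 0.294 and 0.549. Its log2 difference was -4.59 ± 0.56 (adjusted p = 4.98e-05), and -5.17 without KO macrophage replicate 1. Cd55, which limits complement activation on the cell surface, was at 566, 584 and 667 in KO microglia against 20.8, 74.2 and 58.9 in KO macrophages (-3.71 ± 0.60, adjusted p = 0.000609). The chemokine gene Ccl24 differed by -2.70 ± 0.44 (adjusted p = 0.000693). Zbtb46, a transcription factor of dendritic cells, differed by -1.91 ± 0.35 (adjusted p = 0.00189), and Anapc15, a subunit of the anaphase-promoting complex, by -1.90 ± 0.18 (adjusted p = 5e-06). Timd4, a phosphatidylserine receptor of resident tissue macrophages chosen after its values were seen, was at 46.2, 69.8 and 57.1 in KO microglia. KO macrophages held 1 read of it in all 3 libraries together against 189 in KO microglia, a ratio of 182 with a 95% exact counting interval of 32.3 to 7238.

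Many of the genes with the largest origin differences in WT cells did not pass in KO cells. Ms4a14, of the membrane-spanning 4-domain family, had WT means of 1299 in macrophages and 2.29 in microglia. It was at 1519, 1537 and 1589 in KO macrophages and at 2204, 1726 and 1600 in KO microglia (-0.24 ± 0.18, adjusted p = 0.494). Ms4a7, its family member used to mark macrophages of blood origin, was at 2508 to 2665 in KO macrophages and 2651 to 3038 in KO microglia (-0.12 ± 0.31, adjusted p = 0.868). Mndal and Aoah differed by 0.32 ± 0.14 and -0.32 ± 0.33 in KO cells and by 8.56 and 7.52 in WT cells. Aoah was at 767, 895 and 820.1 in KO macrophages and at 1014, 1030 and 1039 in KO microglia, without overlap. The SE is shared over the KO and WT groups, so spread near 0 in WT microglia (0.881, 0 and 3.1 for Aoah) enters it. A gene of this kind that did not pass can therefore still differ between the KO groups. Ms4a4a, with 0 reads in WT microglia and a WT macrophage mean of 306, differed by -0.18 ± 0.15 in KO cells. Apoe, the lipid carrier, was at 79844 to 98693 in KO macrophages and 91050 to 99825 in KO microglia, with a WT microglia mean of 1513. On the other side, Jam2, Ecscr and Upk1b, with WT microglia means of 451, 738 and 264, were at no more than 2.41 in any KO library. Csmd3, at 2284 in WT microglia, was at 14.4, 1.75 and 1.44 in KO macrophages and 3.93 to 5.9 in KO microglia. It did not pass in KO cells (-0.38 ± 0.52, adjusted p = 0.726) unless KO macrophage replicate 1 was left out (-1.23, adjusted p = 0.00966).

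List counts here and below stand beside 5.45% of all tested genes called higher and 5.05% called lower. Within the TGF-β pathway, the ligands and activators of latent TGF-β had 3 of 9 tested members higher and 0 lower in KO macrophages by limma, with a median log2 difference of 0.24 (0.00 over all tested genes). At an unadjusted p under 0.05, and likewise with voom, 5 were higher and 0 lower. Tgfb1 itself was at 1089 to 1223 in KO macrophages and 1078 to 1289 in KO microglia and did not pass. Itgav, the αv subunit of integrins that release TGF-β from its latent form, was at 447, 695 and 690.2 in KO macrophages and at 341, 332 and 297 in KO microglia (0.89 ± 0.15, adjusted p = 0.000761). The receptors had 2 of 10 higher and 1 lower. Tgfbr1, the partner of the deleted receptor, was at 1870, 2824 and 2789 in KO macrophages and at 718, 690.2 and 711 in KO microglia (1.79 ± 0.13, adjusted p = 3.21e-07), with WT means of 8605 and 10242 whose difference did not pass. Acvrl1, another type I receptor of the family, was higher by 0.84 ± 0.15 (adjusted p = 0.00194), and Bmpr1a was the member that was lower.

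SMADs and feedback inhibitors had 4 of 17 members higher and 1 lower. Pmepa1, an inhibitor that TGF-β itself induces, was at 158, 586 and 486 in KO macrophages and at 39.3, 35.4 and 32.2 in KO microglia (3.29 ± 0.32, adjusted p = 6.6e-06). These levels were 4.45, 16.5 and 13.7% of the WT macrophage mean and 2.37, 2.14 and 1.94% of the WT microglia mean, with KO macrophage replicate 1 nearest to the microglia, and the log2 difference was 3.87 without it. Smad7, the inhibitory SMAD, was higher by 0.86 ± 0.18 (adjusted p = 0.00457), a call that did not pass when the 6 KO libraries were fitted alone. Smad3, a signal-carrying SMAD, was lower in KO macrophages, at 235, 305 and 297 against 425, 436 and 398 (-0.60 ± 0.11, adjusted p = 0.00232). Of 12 tested TGF-β and BMP target genes, 5 were higher and 1, Sall1, was lower. Without KO macrophage replicate 1, and likewise with voom, 5 were higher and 3 lower. Tgm2, a transglutaminase, was higher by 3.14 ± 0.30 (adjusted p = 5.66e-06). Tgfbi, an extracellular matrix protein, was at 1437 to 1597 in KO macrophages and 394 to 414 in KO microglia (1.93 ± 0.09, adjusted p = 2.29e-09). Jag1, a Notch ligand, was at 57.6, 102 and 122 in KO macrophages and at 10.8 to 16.9 in KO microglia (2.55 ± 0.47, adjusted p = 0.00184).

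Of 34 tested macrophage transcription factors, 3 were higher in KO macrophages and 8 lower, beside 5.45% and 5.05% of all tested genes. The counts were 5 higher and 9 lower without KO macrophage replicate 1 and 5 and 8 with voom. Higher with all libraries were Runx3, Runx2 (2.34 ± 0.30, adjusted p = 6.92e-05) and Hoxb4 (2.86 ± 0.27, adjusted p = 5.03e-06), which acts in blood-forming cells. Hoxb4 was at 38.4, 58.5 and 63.2 in KO macrophages and at 7.86, 4.92 and 6.43 in KO microglia. Its neighbour Hoxb3 was higher as well (2.60 ± 0.47, adjusted p = 0.00162). Among the lower factors besides Sall1, Sall3 and Zbtb46 were Meis1 (-2.12 ± 0.32, adjusted p = 0.000323) and Runx1 (-0.77 ± 0.11, adjusted p = 0.000164). Runx1 and Runx3 thus differed in opposite directions. Irf8 (1546 to 1586 in KO macrophages, 1316 to 1410 in KO microglia) did not pass.

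Class II antigen presentation had the highest median of the 29 function lists, 0.91 over 15 tested members, of which limma called 9 higher and 0 lower in KO macrophages (11 and 0 at an unadjusted p under 0.05, 9 and 0 with voom weights on the whole reads). It had 12 members higher without KO macrophage replicate 1. Class II molecules present peptides to CD4 T cells, and their genes are controlled through the coactivator CIITA. H2-Ab1 (chromosome 17, 34257689 to 34269419) was at 11846, 10790 and 10016 in KO macrophages and at 1596, 1544 and 1477 in KO microglia (2.82 ± 0.11, adjusted p = 8.16e-10). H2-Aa was at 8101, 7698 and 6723 against 1270, 1141 and 1168 (2.65 ± 0.09, adjusted p = 1.56e-10), and H2-Eb1 at 6745, 6392 and 5798 against 986, 877 and 866 (2.79 ± 0.09, adjusted p = 7.51e-11). All 3 pairs of groups lay far apart, and the KO microglia stood near the WT macrophage means of 1722, 1318 and 1137, while WT microglia were at 66.2, 34.5 and 31.8. The invariant chain gene Cd74 (2.18 ± 0.09, adjusted p = 1.33e-09) and the peptide-loading genes H2-DMa (2.19 ± 0.11, adjusted p = 3.98e-09) and H2-DMb1 (2.04 ± 0.13, adjusted p = 9.35e-08) moved with them. Ciita (chromosome 16, 10480059 to 10528418) was at 823, 1032 and 1144 in KO macrophages and at 178 ± 26.1 (SD, n = 3) in KO microglia (2.48 ± 0.21, adjusted p = 2.04e-06). H2-DMb1 did not pass in WT cells (0.27, adjusted p = 0.119), and its origin difference was larger in KO cells (adjusted p = 5.52e-06).

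The start regions of 3 of these genes are shown because the genes moved together and class II promoters are known to share an arrangement of X and Y boxes bound by the complex that recruits CIITA, with GCAAC letters in many X boxes and ATTGG letters in the Y box. Each is the RefSeq window of 250 bases before to 50 after the annotated start in GRCm38.p6, 5′ to 3′ on the strand of the gene, with capitals on the letter runs ATTGG and GCAAC on either strand: H2-Aa at chr17:34287774-34288073 (minus strand), H2-Eb1 at chr17:34305617-34305916 (plus strand) and H2-DMb1 at chr17:34152941-34153240 (plus strand).
H2-Aa: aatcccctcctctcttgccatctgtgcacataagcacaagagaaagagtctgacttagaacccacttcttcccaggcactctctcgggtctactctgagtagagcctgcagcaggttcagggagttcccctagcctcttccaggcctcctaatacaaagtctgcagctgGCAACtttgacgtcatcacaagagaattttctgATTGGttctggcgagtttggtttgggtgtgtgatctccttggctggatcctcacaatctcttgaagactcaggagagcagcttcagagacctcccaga
H2-Eb1: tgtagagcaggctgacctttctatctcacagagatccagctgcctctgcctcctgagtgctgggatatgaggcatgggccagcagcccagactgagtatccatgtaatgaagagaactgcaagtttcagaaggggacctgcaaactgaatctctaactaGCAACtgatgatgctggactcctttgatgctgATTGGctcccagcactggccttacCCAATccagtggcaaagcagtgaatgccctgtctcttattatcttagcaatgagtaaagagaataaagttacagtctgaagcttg
H2-DMb1: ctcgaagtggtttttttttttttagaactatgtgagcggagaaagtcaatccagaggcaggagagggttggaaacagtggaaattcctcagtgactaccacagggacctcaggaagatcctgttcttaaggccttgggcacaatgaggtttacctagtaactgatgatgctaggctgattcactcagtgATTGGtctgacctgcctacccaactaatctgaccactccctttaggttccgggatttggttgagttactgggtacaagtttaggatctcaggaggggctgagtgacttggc
ATTGG began 48 bases before the start in H2-Aa, 59 bases before it in H2-Eb1 and 61 bases before it in H2-DMb1. GCAAC began 81 bases before the start in H2-Aa and 91 bases before it in H2-Eb1, and the H2-DMb1 window held none. H2-Eb1 held a second ATTGG on the other strand, printed as CCAAT. Of the 16 class II genes, 12 had a window, 9 of them with ATTGG and 7 with GCAAC. Among all 32851 windows of this length, 37.4% held ATTGG, 35.2% GCAAC and 13.7% both, so the letters alone are common.

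Class I antigen presentation moved the other way where it moved: of 19 tested genes limma called 0 higher and 4 lower, with a median of -0.13 (1 and 5 at an unadjusted p under 0.05, 0 and 5 with voom, 0 and 6 without KO macrophage replicate 1). H2-Q4 was at 419, 387 and 289 in KO macrophages and at 778, 678 and 764 in KO microglia (-1.03 ± 0.15, adjusted p = 0.000187), with the reservation on copies given for H2-Q6 and H2-Q7.

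**Figure D4:**
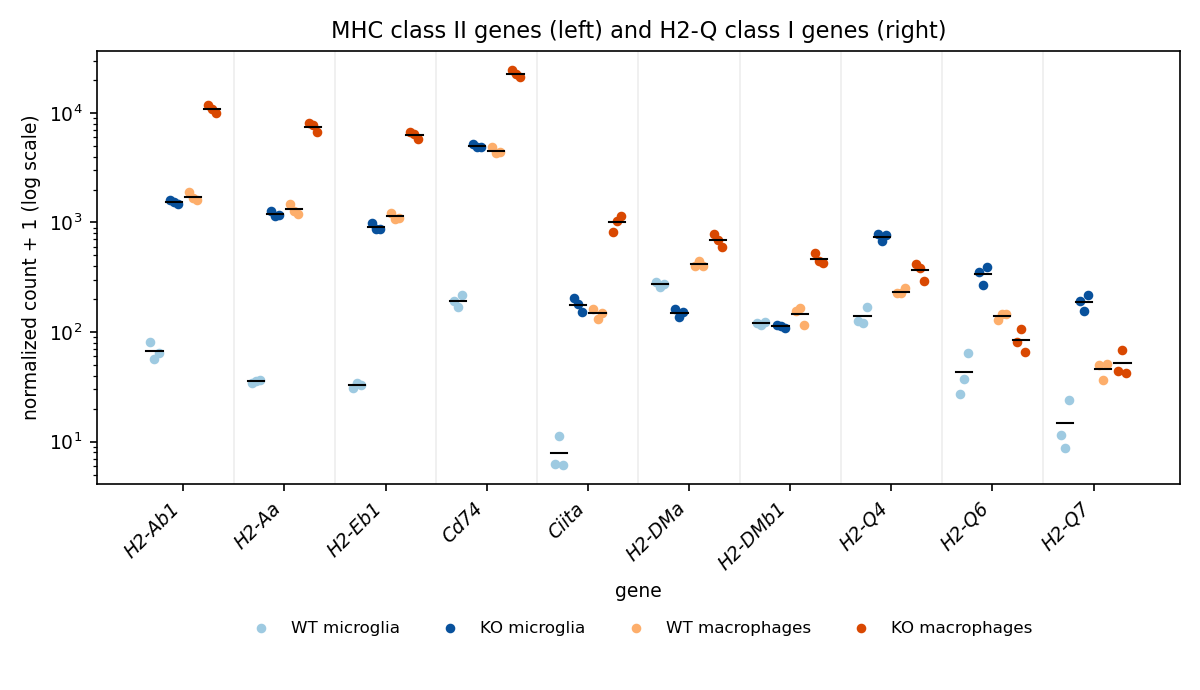
Normalized count + 1 on a log axis in each of the 12 libraries (points) and the group mean (black line) for 7 class II and 3 class I genes. KO macrophages are the highest group for the class II genes (H2-Ab1 at 10016 to 11846), and KO microglia are the highest for the H2-Q genes.

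The 44 tested homeostatic genes of microglia split evenly, 10 higher and 10 lower in KO macrophages, with a median of -0.01. In WT cells 42 of the 44 were higher in microglia. Higher in KO macrophages were Tmem119, Olfml3, Abi3, Cx3cr1, Tgfbr1, Golm1 and Trem2, a lipid-sensing receptor (0.81 ± 0.11, adjusted p = 0.000169). Lower were Sall1, Sall3, Siglech (-1.12 ± 0.17, adjusted p = 0.000392) and the paired ligands of the phagocytic TAM receptors, Gas6 and Pros1. Gas6 was at 1546, 1258 and 1257 in KO macrophages and at 2569, 2570 and 2820 in KO microglia (-0.98 ± 0.14, adjusted p = 0.00016). Pros1 was at 346, 379 and 394 against 740.5, 842 and 859 (-1.12 ± 0.11, adjusted p = 6.3e-06).

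Genes of bone marrow-derived brain macrophages had 19 of 37 tested members higher and 0 lower by limma, with a median of 0.85, against 34 higher and 1 lower in WT cells. At an unadjusted p under 0.05 22 were higher and 1 lower, and with voom 23 and 2. The list was drawn up with results of these data in view, and its direction is not independent evidence. Ccr1, a chemokine receptor, was at 109, 154 and 115 in KO macrophages and at 15.7, 9.83 and 8.84 in KO microglia (3.37 ± 0.23, adjusted p = 1.36e-07). Klra2, a lectin-like receptor of the Ly49 family, was at 408, 635 and 462 against 50.1 to 54.1 (3.23 ± 0.29, adjusted p = 2.59e-06), while WT microglia averaged 2.1. The border-associated macrophage list had 8 of 19 higher and 1 lower, 6 higher and 2 lower without KO macrophage replicate 1, and 8 higher and 5 lower with voom. Siglec1, a sialic acid-binding adhesion receptor, was at 5388, 5018 and 4700 in KO macrophages and at 1754, 1541 and 1744 in KO microglia (1.58 ± 0.14, adjusted p = 2.39e-06). Mrc1, the mannose receptor, was at 11835 to 12365 in KO macrophages and 14200 to 18616 in KO microglia (-0.39 ± 0.13, adjusted p = 0.0672), whereas WT microglia averaged 87.6. Cbr2, a carbonyl reductase, was at 487, 205 and 197 in KO macrophages, highest in replicate 1, and at 43.2, 31.5 and 33.8 in KO microglia (2.88 ± 0.51, adjusted p = 0.00143).

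Of 30 tested C-type lectins, Siglecs and paired receptors, 18 were higher and 2 lower, with a median of 0.89, with 15 higher and 2 lower without KO macrophage replicate 1, 15 and 1 with Ddx3y as a covariate, and 19 and 4 with voom. Clec12a, an inhibitory lectin, was at 1626, 1092 and 962 in KO macrophages and at 236, 199 and 183 in KO microglia (2.54 ± 0.55, adjusted p = 0.00643). Sirpb1a, an activating signal-regulatory protein, was at 50.3 to 55 against 1.97 to 4.02 (3.67 ± 0.53, adjusted p = 0.00021). Integrins and adhesion molecules had 12 of 20 higher and 1 lower, with a median of 0.87. Itgax, the CD11c chain, was at 78.4, 225 and 183 in KO macrophages and at 44.2, 29.5 and 49.8 in KO microglia (1.85 ± 0.30, adjusted p = 0.000565). Itgb3, a β chain that pairs with αv, was the member that was lower, at 4.8, 4.36 and 1.44 against 62.9, 46.2 and 58.7 (-3.74 ± 0.38, adjusted p = 9.86e-06). Chemokine and cytokine receptors had 7 of 24 higher and 1 lower, among them Cxcr4 at 458, 277 and 306 in KO macrophages and 85.5 to 95.7 in KO microglia (1.87 ± 0.17, adjusted p = 3.46e-06). With Ddx3y as a covariate 4 of these receptors were higher and 0 lower.

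Purinergic receptors and ectoenzymes were called both ways, 5 of 14 higher and 3 lower, and 2 higher and 2 lower with Ddx3y as a covariate. P2ry14, a receptor for UDP-sugars, was at 189, 283 and 292 in KO macrophages and at 41.2, 33.4 and 32.2 in KO microglia (2.78 ± 0.29, adjusted p = 1.1e-05). P2rx7, an ATP-gated channel, was lower, at 1314 to 1351 against 1880 to 1928 (-0.51 ± 0.06, adjusted p = 6.41e-05). Adora3, an adenosine receptor chosen after its values were seen, was at 0, 1.75 and 4.31 in KO macrophages and at 20.6, 47.2 and 43.4 in KO microglia, with a log2 difference of -3.88 ± 0.52 (adjusted p = 0.000107) that became -3.23 without KO macrophage replicate 1.

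Phagocytosis and scavenger receptors had 7 of 23 members higher and 3 lower, with 8 and 6 without KO macrophage replicate 1 and 9 and 6 with voom. Stab2, a scavenger receptor for hyaluronan, was at 325, 269.6 and 383 in KO macrophages and at 14.7, 35.4 and 17.7 in KO microglia (3.88 ± 0.39, adjusted p = 7.83e-06), with WT means of 7.46 and 1.76. Cd300lf, a receptor for exposed membrane lipids, was higher by 2.32 ± 0.24 (adjusted p = 1.04e-05). Fcgr2b, the inhibitory IgG receptor, was lower, at 2606 to 3214 against 4553 to 4742 (-0.72 ± 0.08, adjusted p = 1.99e-05). Among 26 disease-associated microglia genes 6 were higher and 1 lower, with 9 higher and 3 lower without KO macrophage replicate 1. Spp1, osteopontin, was at 76.8, 147 and 137 against 3.93, 12.8 and 16.1 (3.48 ± 0.51, adjusted p = 0.000245), and Lyz2, lysozyme, at 9450, 6781 and 5813 against 2810 to 2846 (1.35 ± 0.15, adjusted p = 1.67e-05). Lysosomal genes had 7 of 28 higher and 1 lower, but 6 higher and 5 lower without KO macrophage replicate 1. Psap, which encodes saposins, was higher by 0.85 ± 0.10, Ctsd by 0.81 ± 0.08 and Ctss by 0.83 ± 0.10, while the protease gene Ctsl was lower (-0.55 ± 0.08). Lipid and cholesterol genes had 7 of 26 higher and 2 lower, and 3 higher with Ddx3y as a covariate. Npc1, which exports cholesterol from lysosomes, was higher by 0.75 ± 0.08 (adjusted p = 1.34e-05), and Abca9, a lipid transporter, was lower (-0.45 ± 0.09, adjusted p = 0.00233).

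Glycolysis genes were called in 1 direction: limma called 9 of 18 higher and 0 lower in KO macrophages, with a median of 0.36 (10 and 1 at an unadjusted p under 0.05, 9 and 0 with voom). In WT cells 2 were higher and 11 lower, and 6 of the 18 were opposite genes. With Ddx3y as a covariate 5 were higher. Tpi1, triose phosphate isomerase, was at 196 ± 40.2 (SD, n = 3) in KO macrophages and 109 ± 16.7 in KO microglia (0.83 ± 0.18, adjusted p = 0.00732). Hk1, a hexokinase, was at 200.1, 175 and 182 against 119, 123 and 137 (0.55 ± 0.12, adjusted p = 0.00526). Slc16a3, a lactate exporter, was at 30.4, 48.9 and 67.5 against 17.7, 7.87 and 12.1 (1.88 ± 0.29, adjusted p = 0.00041). The groups did not overlap for any of these 3 genes, while Slc2a3, the glucose importer given above, was lower in KO macrophages. Limma and voom called 0 of 19 oxidative phosphorylation genes, with 4 higher at an unadjusted p under 0.05. Ncf1, a subunit of the NADPH oxidase, was one of 4 genes higher among 16 tested for reactive oxygen species, with 0 lower by limma, by voom or at an unadjusted p under 0.05 (1.14 ± 0.10, adjusted p = 1.66e-06). With Ddx3y as a covariate 2 of them were higher and 0 lower, and without KO macrophage replicate 1 5 were higher and 1 lower. Tfrc, the transferrin receptor, was higher among the 12 iron and heme genes (0.81 ± 0.17, adjusted p = 0.00575).

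Interferon-stimulated genes separated the WT cells, with 38 of 43 higher in macrophages and 1 lower. In KO cells limma called 0 higher and 2 lower, the latter near the 5.05% of all tested genes. The list median was -0.27, and 35 of the 43 were lost genes. At an unadjusted p under 0.05 1 was higher and 14 lower, and with voom 2 were higher and 12 lower. With Ddx3y as a covariate 2 were higher and 0 lower, and without KO macrophage replicate 1 0 were higher and 4 lower. The 2 lower genes, Ifit2 (-1.08 ± 0.28, adjusted p = 0.0221) and Parp14 (-0.34 ± 0.10, adjusted p = 0.039), did not pass without any 1 of the KO microglia libraries, or without KO macrophage replicate 3. Oas2, a sensor of double-stranded RNA, was at 1500, 1389 and 1297 in KO macrophages and at 2311, 1715 and 1670 in KO microglia (-0.43 ± 0.31, adjusted p = 0.443), and WT microglia averaged 14. Of 28 cytokines and chemokines 2 were higher and 2 lower, near the 5.45% and 5.05% of all tested genes. The counts were 2 and 4 without KO macrophage replicate 1 and with voom, and 2 and 1 with Ddx3y as a covariate. Il1a was at 94.4, 129 and 128 in KO macrophages and 59.9, 60 and 74.8 in KO microglia (0.84 ± 0.14, adjusted p = 0.000946). Cxcl14, a chemokine chosen after its values were seen, was at 17.6, 21.8 and 25.9 in KO macrophages, and its 72 reads there against 2 in KO microglia gave a ratio of 37.3 (95% exact counting interval 9.96 to 314). Complement genes had 1 of 16 higher and 3 lower, the lower ones including Cd55.

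Limma called 0 of 26 cell cycle genes, as did voom, and 0 had an unadjusted p under 0.05, but 1 was lower without KO macrophage replicate 1. Mki67, which marks dividing cells, was at 2026, 887 and 904 in KO macrophages and at 1224, 705 and 1029 in KO microglia, and its WT means were 199.8 and 172. The early response to cell isolation had 0 of 26 genes higher and 2 lower by limma with all libraries (1 and 9 at an unadjusted p under 0.05, 0 and 7 with voom), but 17 lower without KO macrophage replicate 1 and 1 with Ddx3y as a covariate. Without that replicate Fos differed by -1.01 (adjusted p = 0.00501) and Hspa1a, a heat-shock protein, by -1.26 (adjusted p = 0.00102). Neither passed with all libraries or with Ddx3y as a covariate. Klf6 passed with and without replicate 1, at 2151, 1670 and 1512 against 2726, 2524 and 2648 (-0.58 ± 0.12, adjusted p = 0.0053). Whether this response took part in the differences of other genes was not tested.

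Of the 109 genes chosen for description by rule, 96 were called in KO cells, and 17 of these lost the call under at least 1 of 19 alternatives. P2ry12, Ifit2 and Parp14 are described above, and the other 14 follow. Skil and Smurf2, which act as feedback inhibitors of TGF-β signalling, were higher in KO macrophages by 0.90 ± 0.21 (adjusted p = 0.00976) and 0.38 ± 0.10 (adjusted p = 0.0269). Skil was at 477, 973 and 883 against 513, 350.0 and 354, so KO macrophage replicate 1 lay within the microglial range, and it did not pass without KO microglia replicate 2 or 3 or with the 6 KO libraries alone. Smurf2 lost its call under 7 alternatives, among them leaving out KO microglia replicate 2 or 3 or KO macrophage replicate 2. Bmp2, a secreted ligand of the family, averaged 136 ± 91.5 (SD, n = 3) in KO macrophages and was at 343, 330.4 and 335 in KO microglia (-1.49 ± 0.35, adjusted p = 0.0117). It did not pass without KO microglia replicate 1 or without KO macrophage replicate 2 or 3. Dab2, an endocytic adaptor, was at 6071 to 6441 against 8086 to 8743 (-0.42 ± 0.13, adjusted p = 0.049). The groups did not overlap, but the call was lost under 9 alternatives, without any 1 of the KO microglia libraries among them.

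The lipid uptake receptor Cd36 was at 339, 356 and 264 in KO macrophages and at 99.2, 88.5 and 136 in KO microglia (1.57 ± 0.34, adjusted p = 0.00652), and lost its call with Ddx3y as a covariate (adjusted p = 0.0601). Pla2g7, a secreted phospholipase, was higher by 0.66 ± 0.16 (adjusted p = 0.0129), but did not pass with that covariate or without KO microglia replicate 2. P2ry13, a receptor for ADP, was at 576, 705 and 563 against 368, 408 and 519 (0.52 ± 0.16, adjusted p = 0.0494), and lost its call under 12 alternatives. Among the genes for reactive oxygen species, Prdx5, a peroxidase, was higher by 0.66 ± 0.16 (adjusted p = 0.0126) and Txnrd1, a thioredoxin reductase, by 0.59 ± 0.15 (adjusted p = 0.0185). Neither passed with the 6 KO libraries alone or without KO microglia replicate 1, and Txnrd1 lost its call under 5 alternatives in all.

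Of the metal transporters, Slc11a1 was higher by 0.32 ± 0.08 (adjusted p = 0.0168; lost under 4 alternatives) and Slc11a2 lower (-0.57 ± 0.17, adjusted p = 0.0457; lost under 13). Pfkp, a phosphofructokinase of glycolysis, was at 92.8, 153 and 130.0 against 70.7, 51.1 and 53.1 (1.08 ± 0.29, adjusted p = 0.0241), and did not pass without KO microglia replicate 2 or 3 or KO macrophage replicate 2 or 3. The mitochondrial transcript mt-Nd6 was at 160.1, 353 and 344 against 467, 464 and 529, lowest in KO macrophage replicate 1 (-0.85 ± 0.23, adjusted p = 0.0261). It lost its call without any 1 of the KO microglia libraries, with the 6 KO libraries alone and with Ddx3y as a covariate (-0.55). Dusp1, a phosphatase of the early response to isolation, was at 1902, 1130 and 1209 against 2520, 1971 and 2268 (-0.71 ± 0.21, adjusted p = 0.0452), and lost its call under 10 alternatives. Mlph, chosen by the rule from the lost genes, differed by -7.51 in WT cells and by -1.87 ± 0.63 (adjusted p = 0.0775) in KO cells, and passed there without WT macrophage replicate 3.

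**Figure D5:**
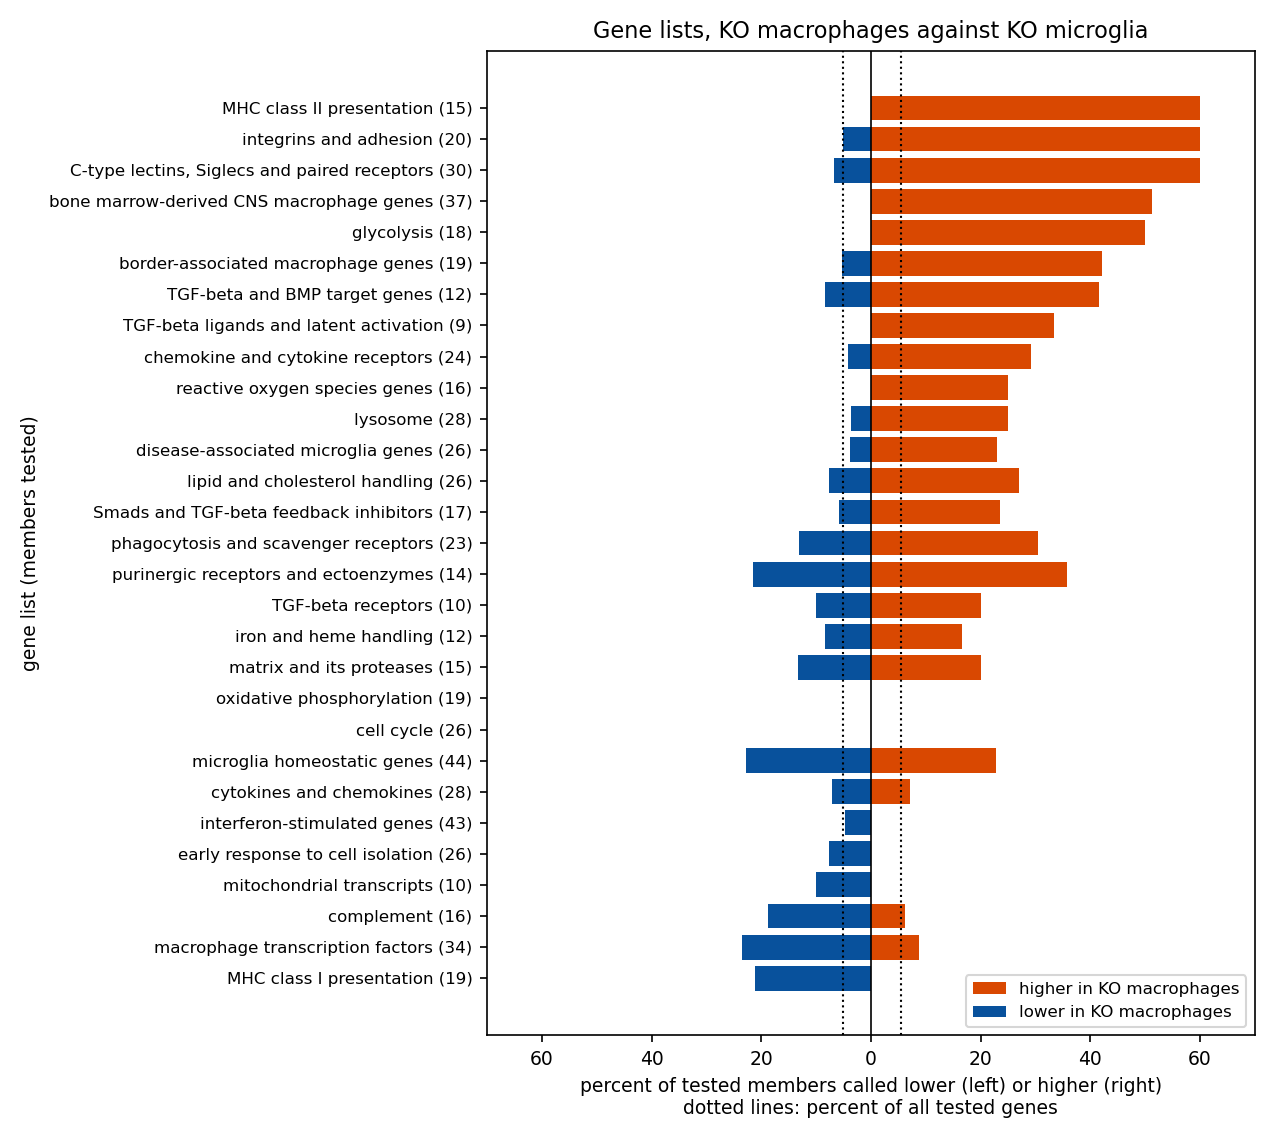
Percent of the tested members of 29 gene lists called higher (right) or lower (left) in KO macrophages against KO microglia, with dotted lines at the 5.45% and 5.05% of all tested genes called. Class II presentation, adhesion and lectin lists reach furthest to the right, and cell cycle and oxidative phosphorylation have no called gene.

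Markers of other cell types ranged in the KO libraries from 0 to the 1636 normalized counts of F13a1. Summed over 12 T and NK cell genes, the level was 48 to 126 in KO macrophages and 22.6 to 30.5 in KO microglia. Most of that in KO macrophages was Cd4, which macrophages can also express, at 33.6, 85.5 and 104 in KO macrophages and 9.82 to 22.5 in KO microglia (2.10 ± 0.48, adjusted p = 0.00996). The call did not pass without KO microglia replicate 1 or without KO macrophage replicate 3. The monocyte gene Ly6c2 was at 0 to 1.75 in all 6 libraries, which were sorted as Ly6C-negative. Ccr2, a chemokine receptor of monocytes, was at 146, 262 and 338 in KO macrophages against a mean of 130 in KO microglia, groups that did not overlap, but it did not pass (log2 difference 0.85, adjusted p = 0.0672). F13a1, shared by monocytes and border macrophages, was at 1361, 1302 and 1636 in KO macrophages and 593, 621 and 633 in KO microglia (1.21 ± 0.20, adjusted p = 0.000877). Neutrophil S100a8 and S100a9 were at 0 in the KO macrophages, and at 6.87 each in 1 KO microglia library, while Csf3r, a receptor of neutrophils, was at 568 to 631 and 606 to 801. The dendritic cell gene list summed to 493 to 599 in KO macrophages and 664 to 735 in KO microglia. Of its 9 tested members 1, Clec9a, was higher in KO macrophages and 2, Zbtb46 and Siglech, were lower. Clec9a was at 57.6, 78.5 and 53.1 in KO macrophages and 5.89 to 6.88 in KO microglia (3.10 ± 0.43, adjusted p = 0.00016). Xcr1, Flt3 and Ccr7 were at no more than 6.46 in any of the 6. Ighm was lower in KO macrophages, at 600.4 to 789.7 against 954 to 981 (-0.47 ± 0.09, adjusted p = 0.00233), and the B cell gene Ms4a1 was at no more than 1.61. The astrocyte gene list summed to 154 to 167 in KO macrophages and 255 to 317 in KO microglia. Of its 4 tested members 2 were lower in KO macrophages and 0 higher. Gfap averaged 43.2 in KO macrophages and 45.2 in KO microglia and did not pass. Slc1a3, a glutamate transporter, was lower in KO macrophages (-2.07 ± 0.43, adjusted p = 0.00503), and its WT means were 613 in microglia and 9.3 in macrophages. Oligodendrocyte genes summed to 381 to 680.3 in KO macrophages, highest in replicate 1, and to 502 to 581 in KO microglia, with Mbp, a myelin protein, at 122 to 209.7 and 203 to 217. The part of such RNA in the differences above was not tested.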

How the data were processed

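The authors deposited 1 table of log2 values, with 25904 genes and 12 libraries. Judged from the values, the authors' unit was log2 of the read count divided by a size factor per library, plus 1, since 100% of the values turned back into whole reads (tolerance 0.01 reads). Libraries were made from total RNA with a stranded pico-input kit, per the labels' protocols. GRCm38, STAR, bcl2fastq and CASAVA are named in the submitters' processing notes. Versions, counting and strand settings and the annotation were not given in the sources used here, and reads of overlapping or antisense gene pairs can therefore not be assigned with certainty. Symbols and positions came from GENCODE mouse release 21.

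A gene was tested where 3 or more libraries reached a normalized count of 10 (12519 tested, 13385 not) with limma 3.58.1 in R 4.3.3, with 1 mean per group over all 12 libraries, a mean-variance trend and Benjamini-Hochberg adjusted p of 0.05 over all tested genes. SE is that of the moderated log2 difference. A log2 difference is on the scale of log2(normalized count + 1) and understates the change of low genes. Groups came from the library titles, and replicate numbers follow accession order and pair nothing. Ratios with 1 to 3 reads in a group carry an exact binomial 95% interval, which covers counting error only. Scripts were tested on simulated data. Python 3.11.15 wrote tables and figures.

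Genes named by rule were the sorting and target genes, the 12 largest called differences each way without overlap of libraries and with a mean of at least 100 in the higher group, 5 each way per class, and up to 3 members in the main and 1 in the other direction per list. All of these are described, those whose call failed under an alternative included, except items that are not reported here. Genes outside the rule, chosen after their values were seen, were Ciita, Cd74, H2-DMa, H2-DMb1, Hoxb4, Hoxb3, Runx2, Runx1, Sall3, Irf8, Spi1, Itgb3, Clec9a, Sirpb1a, Smad7, Tgm2, Jag1, Slc16a3, Ddx3y, Csf1r, Apoe, Mki67, Fos, Hspa1a, Tgfb1, Mrc1, Gas6, Pros1, Trem2, Oas2, F13a1, Cd4, Ighm, Slc1a3, Timd4, Cxcl14, Adora3, Golm1 and the other cell type markers. Members and lists were chosen with earlier results of these data known. Alternatives were no filter or a filter of 50, a pseudocount of 10, upper-quartile scaling, limma voom on whole reads, the 6 KO libraries alone, Ddx3y as a covariate, and each library left out in turn.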

Additional observations from a re-analysis of the deposited data

Results flagged for a closer look

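The origin difference, macrophages minus microglia on the log2 scale, differed between KO and WT cells by a test of that difference in limma for 3235 genes, and the values for the genes described above were as follows, each as the KO difference minus the WT difference. The WT groups were sorted by a lower F4/80 gate than the KO groups.

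Among opposite genes, the value was positive, towards macrophages in KO cells, for Tmem119 8.26, Olfml3 7.43, Pecam1 5.51, Tgm2 4.26, P2ry12 3.68, Abi3 3.64, Golm1 3.52, Arhgef40 3.23, Slc16a3 2.95, Cx3cr1 2.88, Smad7 2.03, Il1a 1.68, Tfrc 1.60, Ncf1 1.44, Ctss 1.29, Trem2 1.15, Ctsd 1.14, Npc1 0.98, Hk1 0.87, P2ry13 2.52 and Txnrd1 1.02. It was negative for Adam19 -9.25, H2-Q6 -3.82, H2-Q7 -3.64, Slc2a3 -2.70, Ifit2 -2.65, Meg3 -2.46, H2-Q4 -1.80, Parp14 -1.40, Bmp2 -4.08 and Dab2 -4.74. Among KO-specific genes, it was positive for Lhfpl2 5.30, F11r 5.15, Arhgap27 3.34, Pbxip1 3.09, Adgrl3 2.16, Tgfbr1 2.04, H2-DMb1 1.77, Itgav 1.22, Tpi1 1.09, Psap 0.87 and Skil 0.84, and negative for Timd4 -5.42, Cpne8 -4.75, Cd55 -4.56, Ccl24 -2.36, Zbtb46 -1.71, Anapc15 -1.56, Runx1 -0.82, Fcgr2b -0.52, P2rx7 -0.43, Slc11a2 -0.89 and mt-Nd6 -1.37.

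Among kept genes, a positive value was found for Sall3 6.08, Sall1 4.87, Slc1a3 4.08, Mmp14 2.62, Stab2 2.22, Itgb3 2.19, Pmepa1 2.18, Ctsl 1.89, H2-DMa 1.57, Peg10 1.42, Siglech 1.06, Pros1 0.91 and Smad3 0.73, and a negative one for Cxcr4 -5.39, Clec12a -5.38, Klra2 -4.97, Siglec1 -4.77, Jag1 -4.19, Runx3 -2.98, Lyz2 -2.97, F13a1 -2.84, P2ry14 -2.72, H2-Aa -2.56, Cd74 -2.37, H2-Eb1 -2.32, Hoxb3 -1.93, H2-Ab1 -1.87, Ciita -1.79, Runx2 -1.36, Acvrl1 -1.04, Tgfbi -0.38, Cd36 -4.07, Pla2g7 -5.87 and Pfkp -2.06. Among lost genes, the positive values were Csmd3 9.06, Ecscr 8.64, Jam2 7.75, Upk1b 7.34, Mlph 5.65, Itgam 1.38, Tgfb1 0.96, Csf1r 0.88, Irf8 0.40 and Spi1 0.38, and the negative values Ms4a14 -8.92, Ms4a7 -8.71, Ms4a4a -8.44, Mndal -8.24, Aoah -7.84, Apoe -6.51, Mrc1 -6.02, Oas2 -5.93, Hspa1a -1.91 and Adgre1 -0.91.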

How the results depend on the processing

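The count of genes called between KO macrophages and KO microglia was 904 to 1511 under the alternatives with all KO libraries and 927 to 1552 with 1 library left out. Genes lower in KO macrophages numbered 632, but 408 with Ddx3y as a covariate, and 398 to 719 with 1 library left out. Opposite genes numbered 201, but 124 with Ddx3y as a covariate, and 132 to 273 with 1 library left out. KO-specific genes numbered 219, but 139 with Ddx3y as a covariate. The cause of these changes was not tested. The other counts (all calls, higher calls, WT calls, the difference between KO and WT, kept and lost genes) stayed within 1.5 times. Of 125 called genes among those chosen, 106 kept the call under all alternatives run and 19 lost it under at least 1, and no direction was reversed. Many of these genes were chosen for large called differences, so their share does not stand for all calls. Of all 1314 called genes, 863 kept the call with Ddx3y as a covariate and 1142 without KO macrophage replicate 1. A pseudocount of 10 in place of 1 shrank the differences of low genes, to 4.57 on the log2 scale for Tmem119 and -4.72 for Bmpr1a. No paired analysis was possible because the replicate numbers follow accession order and the labels tie no library of one group to one of another. With 3 pools a group, p-values measure only the spread between pools, shared over the KO and WT groups. The shallowest library, of 2615404 reads, limits genes near 1 read.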
